A study of Mus musculus with 10 samples.

Results

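The last interval of a first interferon response was followed here in naive mouse embryonic fibroblasts (MEFs), connective tissue cells grown out of embryos, by setting 6 h against 4 h of interferon-beta (IFN-β). The pair is 2 of the 10 libraries of the series. One culture had received 100 U per ml of IFN-β for 6 h and the other for 4 h, with no earlier exposure. All 10 libraries come from C57BL/6 MEFs of an H3.3b-HA knock-in, in which a cDNA for the HA-tagged histone variant H3.3 stands in place of H3f3b, and the controls carry it too. The H3f3b row had 13.6 RPKM at 6 h, against 11.9 RPKM at 4 h. Cells grew on plastic in DMEM with 10% serum, and the labelled hours are taken to run from the addition of IFN-β. A pretreated arm, exposed to interferon before its own course, gave separate libraries at 6 h and 4 h. How long that exposure lasted is unknown, as is whether its cells were grown and handled apart from the naive pair. Each group has 1 library, so the comparison has no replicate, no test and no p-value. Embryo number, passage and culture number are not given either, and untreated cells at 1 to 6 h were not analysed here, so time in culture and time in interferon cannot be told apart.

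Every gene of the table was compared, and 12168 of 23370 gene symbols passed a filter that asked for 1 RPKM or more in 2 or more libraries. RPKM, reads per kilobase of transcript per unit of depth, is a level per length and can be compared between genes. Differences are 6 h minus 4 h of log2(RPKM + 1), a scale that makes the change of weakly expressed genes too small. A gene was counted as apart at 2-fold or more on that scale, with a second count at 1.5-fold. The kept transcripts held 261020465 counts in the 6 h library and 254334671 counts in the 4 h library, and the other 8 held between 83907506 and 268463961 counts. The folds printed with limits are ratios of RPKM with 95% exact intervals from the counts, which cover counting error only. The cells matched their label: the 10 fibroblast markers summed to 11611 RPKM at 6 h, against 12343 RPKM at 4 h, although Thy1 was at 3.37 and 3.68 RPKM. The 9 macrophage markers in the table summed to 8.76 and 8.85 RPKM, with Emr1 and Tyrobp at 0 in both libraries. Marker sums of endothelial, epithelial, muscle and neural cells lay between 2.75 and 7.43 RPKM at 6 h and between 3.28 and 7.10 RPKM at 4 h. No gene of the naive arm had both its 1 and 4 h libraries 2-fold above, or 2-fold below, all of 0, 2 and 6 h, whereas in the pretreated arm 9 genes were above and 3 below, so these libraries stood apart there. In bulk RNA, fewer cells of a type and less RNA per cell cannot be told apart.

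Type I interferons such as IFN-β bind a receptor of Ifnar1 and Ifnar2 and act through the kinases Jak1 and Tyk2 on transcription factors that enter the nucleus and work there with Irf9. They bind the interferon-stimulated response element (ISRE) in front of antiviral genes, and new transcription factors made in the first hours, such as Irf1 and Irf7, extend the response. Feedback proteins, among them Socs1 and Usp18, limit signalling from the receptor, and the level a transcript holds late depends on how fast it is still made and how fast it decays.

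Between 4 and 6 h the naive transcriptome was close to still. A single gene was 2-fold or more higher at 6 h, 0.00822% of the genes tested, and 5 were 2-fold or more lower, 0.0411%. At 1.5-fold, 19 genes were higher (0.156%) and 51 lower (0.419%). The earlier intervals of the same course held many more 2-fold differences. There were 246 genes higher and 22 lower at 1 h than at 0 h (2.02% and 0.181%), 276 higher and 103 lower at 2 h than at 1 h (2.27% and 0.846%), and 211 higher and 101 lower at 4 h than at 2 h (1.73% and 0.83%). Over all genes the 6 h minus 4 h difference had a median of 0.00 and an SD of 0.17 on the log2 scale, 90% of genes lay between -0.27 and 0.27, and the extremes were -1.53 and 1.04. Any amount higher at 6 h held for 6200 genes, or 51%, and any amount lower for 5963, or 49%. At 1.5-fold those 3 intervals held 535, 874 and 618 genes higher (4.4%, 7.18% and 5.08%) and 163, 663 and 583 lower (1.34%, 5.45% and 4.79%). Since these are single libraries, the variation between repeat cultures is unknown, and the 2 libraries of this interval were also the deepest of the naive arm.

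**Figure D1:**
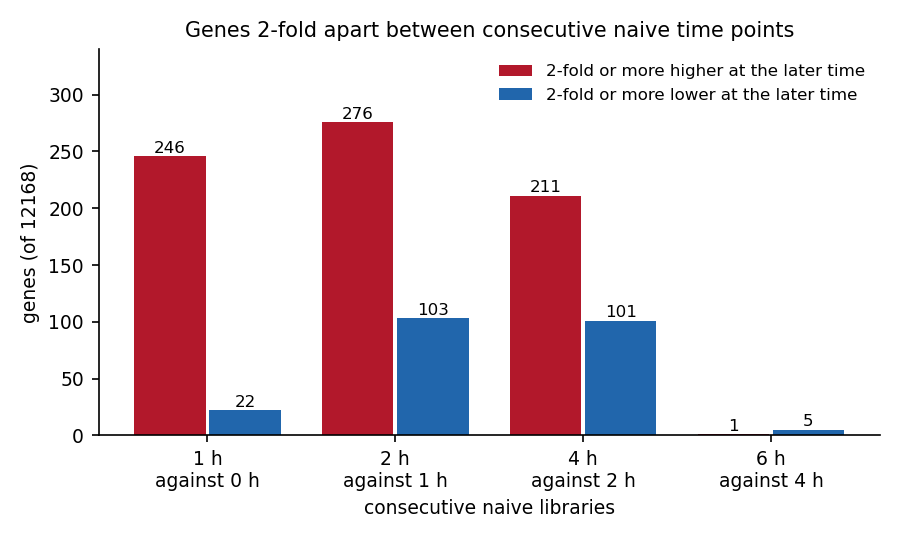
Bars give the number of genes, of 12168 tested, whose log2(RPKM + 1) lay 2-fold or more higher (red) or lower (blue) at the later of 2 consecutive naive time points, with 1 library per time. The first 3 intervals hold 211 to 276 genes higher, and the interval from 4 to 6 h holds 1 higher and 5 lower.

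The thresholds divide a continuous spread. Just inside the 2-fold limit were Hist1h2af at 1.04 and Cd274 at -1.02, and just outside it Ly6i at 0.83 and Fsbp at -0.97. At 1.5-fold, H2-Ab1 (0.60) and Hk2 (-0.59) lay inside, and Psmb10 (0.58) and Katna1 (-0.58) outside. Of the 19 genes higher, 13 reached 5 RPKM in 1 of the 2 libraries, as did 36 of the 51 genes lower, so part of each group rests on low levels.

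**Figure D2:**
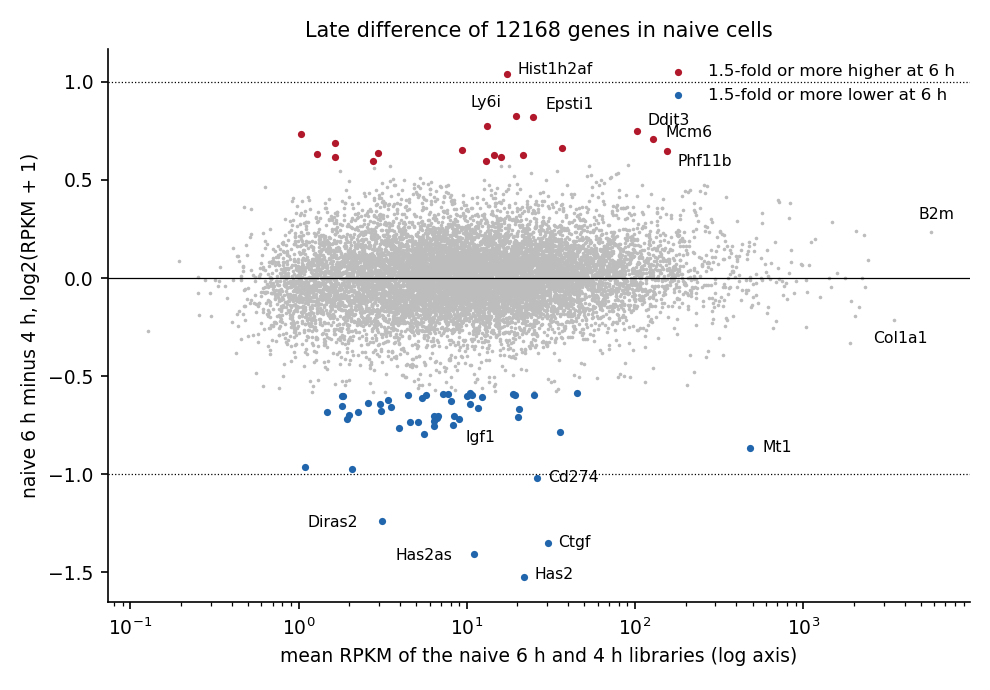
Each point is 1 of 12168 genes, placed by its mean RPKM in the naive 6 h and 4 h libraries (log axis) and by its 6 h minus 4 h difference in log2(RPKM + 1), with 1 library each; dotted lines mark 2-fold. The 19 genes 1.5-fold higher (red) and 51 genes 1.5-fold lower (blue) surround a band in which 90% of genes lie between -0.27 and 0.27.

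Has2, which encodes a hyaluronan synthase at the plasma membrane, had the largest negative difference of all genes. Has2 stood at 6.32, 22.5, 50.3, 32.9 and 10.8 RPKM at 0, 1, 2, 4 and 6 h. It was highest at 2 h, and by 6 h it was at 0.328 of its 4 h level (95% limits 0.321 to 0.335; 11897 counts at 6 h and 35352 at 4 h). The gene lies on the minus strand of mm10 chromosome 15 at 56665627 to 56694546, in 4 exons. Its antisense transcript Has2as lies across it on the plus strand, at 56689944 to 56694460, and had 3.83, 15.5, 23.8, 16.5 and 5.61 RPKM over the same times. The log2 differences were -1.53 for Has2 and -1.41 for Has2as. Strand use in the counting is a detail not given in the sources used here, so reads of the pair cannot be separated where they overlap.

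Ctgf, a secreted matricellular protein gene that responds to serum and TGF-β, had the next largest negative difference among protein-coding genes. It stood at 20.1, 22.6, 50.8, 44.2 and 16.7 RPKM from 0 to 6 h, and its 6 h level was 0.378 of that at 4 h (0.369 to 0.387). It was thus high at 2 and 4 h only, and at 6 h it was below its level at 0 h. Diras2, a small GTPase of the Ras family, was at 1.31, 0.861, 4.02, 4.81 and 1.46 RPKM, a log2 difference of -1.24 at low level. Cd274 encodes PD-L1, the ligand of the inhibitory T cell receptor PD-1, and is induced by interferons in many cells. It was at 0.420, 11.8, 40.4, 35.5 and 17.0 RPKM, so that 6 h held 0.479 of the 4 h level (0.470 to 0.488) and was still far above 0 h. In mm10, Ctgf lies on chromosome 10 at 24595442 to 24598682 (plus strand, 5 exons), Diras2 on chromosome 13 at 52504375 to 52530836 (minus strand, 2 exons) and Cd274 on chromosome 19 at 29367438 to 29388094 (plus strand, 7 exons). Fsbp followed at 1.07 RPKM at 6 h, against 3.06 RPKM at 4 h, but its annotated span overlaps that of Rad54b on the same strand.

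Other genes that were lower at 6 h also had an early peak. Phlda1, an immediate response gene, was at 32.9, 81.5, 61.3, 45.7 and 26.2 RPKM. Pim3, a survival kinase gene, was at 9.72, 29.9, 20.8, 13.1 and 8.36 RPKM. Hk2, the hexokinase that starts glycolysis in growing cells, was at 5.48, 19.3, 16.4, 12.8 and 8.16 RPKM. All 3 were highest at 1 h and lower at every later time. Serpina3g and Serpina3f, neighbouring and overlapping protease inhibitor genes whose reads may be shared, were at 35.7 and 3.77 RPKM at 6 h, against 54.2 and 7.29 RPKM at 4 h, after 117 and 15.3 RPKM at 2 h. A later peak, at 4 h, was seen in Htr2a, a serotonin receptor gene, with 1.77, 4.15, 9.96, 12.3 and 7.74 RPKM. Clic5, a chloride intracellular channel gene, also peaked there, with 0.268, 0.347, 3.55, 9.55 and 6.01 RPKM.

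Among the other genes lower at 6 h was Igf1, a growth factor of fibroblasts and their neighbours. It was lower at each time after 1 h, with 17.9, 20.3, 15.5, 10.7 and 5.93 RPKM. Its 6 h level was 0.556 of that at 4 h (0.524 to 0.591). Gjb2, which encodes connexin 26, was at 4.92 RPKM at 6 h, against 8.63 RPKM at 4 h, after 14.4 to 15.3 RPKM at 0 to 2 h, so both late times were below the early ones. Nr1d1, the REV-ERBα repressor of the circadian clock, was at 46.2, 31.0, 14.5, 25.1 and 15 RPKM, with 2 low points. Wnt2, a secreted signal, and Sfrp4, an antagonist of Wnt signals, were low throughout, at 1.80 and 1.25 RPKM at 6 h, against 3.36 and 2.41 RPKM at 4 h. Agtr2, the type 2 angiotensin receptor, was highest at 4 h, with 2.76, 2.93, 4.02, 8.23 and 4.48 RPKM. Mt1, a metal-binding metallothionein, was by far the most abundant of the 51 genes, at 480, 778, 610, 625 and 343 RPKM.

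Over all 51 genes that were 1.5-fold lower, 20 had their lowest level of the 5 times at 6 h, and 29 had been higher at 4 h than at 2 h. These genes were chosen for being lower at 6 h than at 4 h, which bears on both counts. The shares over all genes are not given here. Within 2-fold of naive 0 h lay 33 of the 51 at 4 h already and 40 at 6 h, when 7 were 2-fold or more above it. The group also held small RNA genes whose RPKM rests on short annotated lengths. Without symbols of microRNAs, small nucleolar RNAs and the RNase P and MRP families, a count made after seeing the data, 41 genes of 11988 were lower and 17 higher.

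**Figure D3:**
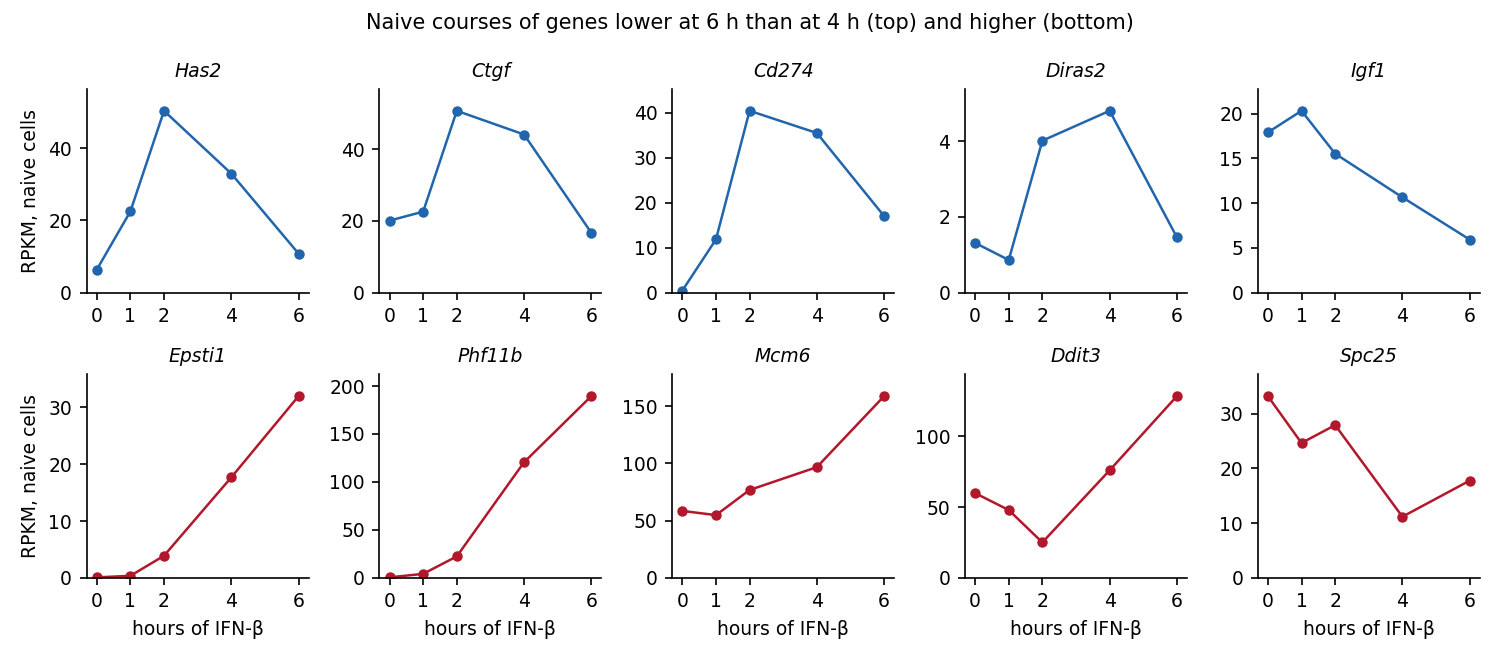
RPKM of 10 genes in the 5 naive libraries against hours of IFN-β, 1 library per point, each panel from 0 on its own linear axis. The upper 5 genes were lower at 6 h than at 4 h, with Has2, Ctgf and Cd274 highest at 2 h; the lower 5 were higher at 6 h, of which Epsti1 and Phf11b were higher at each later time and Spc25 stayed below its 0 h level.

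Among the 19 genes higher at 6 h were interferon-induced genes of slow onset. Epsti1, an interferon-responsive gene named for epithelial and stromal interaction, was at 0.0800, 0.353, 3.89, 17.7 and 32.0 RPKM, and its 6 h level was 1.81 times that at 4 h (1.76 to 1.86). Pyhin1, a DNA-binding member of the PYHIN family, was at 0.0310, 0.467, 2.81, 9.42 and 16.8 RPKM. Both were higher at each later time, with no peak before 6 h. Phf11b, a PHD finger gene induced by interferon, was the most abundant of this kind, with 0.514, 4.14, 22.4, 121 and 189 RPKM and a fold of 1.57 (1.55 to 1.59). Gbp1, an interferon-inducible GTPase that acts against intracellular pathogens, was at 0, 0.929, 7.38, 10.2 and 16.0 RPKM. Epsti1 lies on chromosome 14 at 77904239 to 78002656 (plus strand, 12 exons) and Phf11b on the same chromosome at 59320964 to 59341330 (minus strand, 9 exons).

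The promoters of Phf11b and Gbp1 are shown because both genes were higher at 6 h than at any earlier time and both windows hold the ISRE core, GAAA followed by 2 bases of any kind and GAAA again, which is in capitals (Gbp1 has it on the opposite strand). Windows run from 250 bases before to 50 bases after the start in RefSeq (GRCm38.p6, the build called mm10), at chr14:59341281-59341580 on the minus strand for Phf11b and chr3:142594597-142594896 on the plus strand for Gbp1. The match begins 50 bases before the start of Phf11b and 137 bases before that of Gbp1. The windows of Epsti1 and Pyhin1, which had larger differences, hold no match.
Phf11b: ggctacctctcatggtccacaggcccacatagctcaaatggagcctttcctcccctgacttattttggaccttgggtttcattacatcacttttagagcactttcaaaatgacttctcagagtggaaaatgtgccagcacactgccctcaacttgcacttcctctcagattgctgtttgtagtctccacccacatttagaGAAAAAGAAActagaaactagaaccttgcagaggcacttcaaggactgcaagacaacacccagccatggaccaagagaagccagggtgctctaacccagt
Gbp1: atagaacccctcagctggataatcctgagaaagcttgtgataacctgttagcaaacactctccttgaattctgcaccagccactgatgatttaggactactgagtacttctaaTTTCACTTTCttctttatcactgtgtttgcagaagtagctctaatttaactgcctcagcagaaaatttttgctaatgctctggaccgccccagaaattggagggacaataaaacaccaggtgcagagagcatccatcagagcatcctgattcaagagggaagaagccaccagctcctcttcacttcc

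Of the 12168 genes, 9292 had such a window, and 294 of these, 3.16%, hold the core on either strand. Among the 19 genes that were 1.5-fold higher, 14 had a window and 5 hold the core, and among the 51 genes lower, 29 had a window and 2 hold it. For 481 genes that had been 2-fold above 0 h at 2 h, 80 of 328 windows, or 24.4%, hold it. The motif TTCNNNGAA, known as the GAS site, is in 6.94% of all windows, in 0 of the 14 and in 2 of the 29. These are matches of letters in a window, not sites shown to be bound.

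Weakly expressed immune genes, namely Ctss and H2-Ab1, were also among the 19. Ctss, the lysosomal protease cathepsin S, was at 2.26 RPKM at 6 h, against 1.02 RPKM at 4 h, and H2-Ab1, a class II MHC chain, at 3.53 and 2.0 RPKM. Both were near 0 from 0 to 2 h, at no more than 0.068 RPKM for Ctss and 0.233 RPKM for H2-Ab1. Ly6i, a GPI-anchored surface protein gene of the Ly6 cluster, was at 1.54, 1.68, 3.16, 13.9 and 25.4 RPKM, a fold of 1.83 (1.75 to 1.91). Akr1c14, an aldo-keto reductase, was at 2.40, 3.53, 7.23, 16.7 and 26.4 RPKM.

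Other genes higher at 6 h have roles outside the interferon response. Mcm6, a subunit of the replicative helicase, was at 58.6, 54.8, 76.8, 96.8 and 159 RPKM, while the other 5 subunits of the complex lay between 18.2 and 28.5 RPKM at both times. Its 6 h level was 1.64 times that at 4 h (1.63 to 1.66; 119753 counts at 6 h and 71017 at 4 h). Ddit3 encodes CHOP, a transcription factor of stressed cells, and was at 59.9, 47.9, 25, 76.0 and 128 RPKM. It had its low point at 2 h, and at 6 h it was 1.69 times its 4 h level (1.66 to 1.72). Ddit3 overlaps Mars on the opposite strand. Hist1h2af, an H2A histone gene of near-identical relatives whose reads cannot be assigned with certainty, was at 27.9, 29.8, 17.8, 11.1 and 23.8 RPKM and was the 1 gene past 2-fold.

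Of the 19 genes, 16 had their highest level of the 5 times at 6 h, and 16 had already been higher at 4 h than at 2 h. These genes were chosen for being higher at 6 h than at 4 h, which bears on both counts. The shares over all genes are not given here, so the counts lack a background. The courses of the 19 differed: Phf11b was higher at each later time, Ddit3 had a low point at 2 h, and Spc25 stayed below its 0 h level. Spc25, a subunit of the NDC80 complex that ties chromosomes to the spindle, was at 33.2, 24.6, 27.9, 11.2 and 17.7 RPKM. Lbh, a transcriptional regulator, was at 17.8, 12.8, 6.84, 7.07 and 11.7 RPKM.

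Counted in RPKM rather than in folds, the largest differences were in abundant transcripts. B2m, the light chain of class I MHC, had the largest gain, with 6179 RPKM at 6 h, against 5250 RPKM at 4 h, which is a fold of 1.18. Actb had 2242 and 1897 RPKM, and Mgp, the matrix Gla protein gene, 2454 and 2110 RPKM. Ly6a had 1636 and 1342 RPKM, and Lgals9, the galectin-9 gene, 944 and 724 RPKM. Col1a1, a chain of type I collagen, had the largest loss, with 3200 RPKM at 6 h, against 3707 RPKM at 4 h, and Fn1, fibronectin, had 2034 and 2250 RPKM. The ribosomal precursor Rn45s had 1678 and 2109 RPKM, and it took between 0.974% and 3.90% of the counts over the 10 libraries, the lowest share being that of the naive 6 h library.

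Genes already induced at 2 h allow the late interval to be read without using its own libraries for the choice. There were 481 such genes at 2-fold or more above naive 0 h (3.95% of those tested). Their 6 h minus 4 h difference had a median of 0.03, with quartiles of -0.18 and 0.22, and 457 lay within 1.5-fold. The genes apart were 18 lower, or 3.74%, against 0.419% of all genes, and 6 higher, or 1.25%, against 0.156%. In pretreated cells the same 481 genes had a median of -0.12, with 22 lower, or 4.57%, against 1.5% of all genes, and 9 higher, or 1.87%, against 1.02%. The 154 genes 2-fold below 0 h at 2 h (1.27%) had a median of -0.02, with 2 genes lower and 2 higher at 1.5-fold. If the class is set at 4 h, 695 genes were 2-fold above 0 h (5.71%) and 388 below (3.19%). Their late medians were 0.07 and 0.04, but this choice shares the 4 h library with the late comparison. Over the whole course, 923 genes reached 2-fold above 0 h at some time. The highest level came at 1 h in 68 of them, at 2 h in 122, at 4 h in 210 and at 6 h in 523. Of 616 genes that reached 2-fold below 0 h, 297 were lowest at 6 h. These times of the highest and lowest level take any margin, and the shares over all genes are not given here. Of the 695 genes 2-fold above 0 h at 4 h, 665 lay within 1.5-fold between 4 and 6 h.

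Lists of genes by function held few members past 1.5-fold. For each list the background in naive cells is 51% of all genes higher at 6 h and 49% lower. Antiviral effectors, which act on viral RNA and proteins, had 31 of 32 listed members past the filter, all 2-fold above 0 h at both 4 and 6 h. Of these 23 were higher at 6 h and 8 lower, with a median of 0.12 and 0 past 1.5-fold in either direction. Isg20, an exonuclease, had 128 RPKM at 6 h, against 92.1 RPKM at 4 h, and Ifi44 310 and 223 RPKM. Ifit2, which binds RNA, had 809 and 614 RPKM, and Isg15, the ubiquitin-like modifier, 254 and 195 RPKM. Ifit1, a relative of Ifit2 and the most abundant of the list at 2 h with 1276 RPKM, was at 952 RPKM at 6 h, against 1132 RPKM at 4 h. Rsad2, or viperin, which makes an antiviral nucleotide, had 281 and 311 RPKM. Members of 1 family thus differed in which of the 2 times was higher.

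The interferon-inducible GTPases, of which all 18 listed passed, had 15 higher and 3 lower and a median of 0.14. Gbp1, which was past 1.5-fold at 0.60, is not on this list. Gbp2 had 810 RPKM at 6 h, against 619 RPKM at 4 h, and Gbp3 227 and 167 RPKM. The 3 lower were Irgm1, Irgm2 and Igtp, immunity-related GTPases, each within 0.05 of 0 on the log2 scale. Irgm1 had 398 RPKM at 6 h, against 410 RPKM at 4 h.

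Nucleic acid sensors had 11 of 18 higher, beside 51% of all genes, with a median of 0.12 and Pyhin1 as the 1 member past 1.5-fold. The DNA-binding PYHIN genes Ifi204 and Mnda had 301 and 280 RPKM at 6 h, against 216 and 206 RPKM at 4 h. Zbp1, a sensor of Z-form nucleic acids, had 256 and 205 RPKM. Nod1, which senses bacterial peptidoglycan, was lower at 11.6 and 17.5 RPKM, and so was Tmem173, or STING, at 29.4 and 37.2 RPKM.

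In the immunoproteasome and peptide loading list, 13 of 14 members were higher, with a median of 0.25. The inducible catalytic subunits Psmb8, Psmb9 and Psmb10 had 142, 117 and 109 RPKM at 6 h, against 106, 87.4 and 72.8 RPKM at 4 h. Their log2 differences were 0.43, 0.42 and 0.58, of which that of Psmb10 lay just under 1.5-fold. The activator subunit Psme1 had 396 and 297 RPKM and the transporter subunit Tap2 76.8 and 63.6 RPKM, while Nlrc5, the transactivator of class I genes, had 35.8 and 37.1 RPKM. Constitutive proteasome subunits, 27 of 31 higher, had a median of 0.11.

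Among class I MHC heavy chains and B2m, 9 of 15 were lower, beside 49% of all genes, with a median of -0.14 and 2 past 1.5-fold. H2-K1, a classical heavy chain, was at 9.94, 13.3, 37.7, 379 and 288 RPKM from 0 to 6 h. H2-Q6 and H2-Q8 were at 15.2 and 14.7 RPKM at 6 h, against 23.4 and 22.7 RPKM at 4 h, but these near-identical genes share reads and count as 1 observation at most. The nonclassical H2-T22 had 192 RPKM at 6 h, against 165 RPKM at 4 h, and H2-T23 112 and 102 RPKM.

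Transcription factors and feedback genes of the pathway stayed within 1.5-fold, with Irf2 and Socs1 the furthest below. Stat2 had 256 RPKM at 6 h, against 244 RPKM at 4 h, and Irf9, its partner at the ISRE, 89.8 and 86.3 RPKM. Irf7 had 295 and 267 RPKM. Irf1, which peaked at 205 RPKM at 1 h, had 87.4 and 97.8 RPKM, and Irf2, its antagonist, 35.9 and 51.0 RPKM. Of the feedback genes, Socs1 was at 8.90, 161, 157, 92.6 and 65.0 RPKM over the course, a log2 difference of -0.50 at the end, while Usp18, the ISG15 protease that also blocks the receptor, had 280 RPKM at 6 h, against 287 RPKM at 4 h. Socs3 was below its 0 h level of 24.7 RPKM at both times, with 14.2 and 13.2 RPKM. The list of 12 feedback inhibitors past the filter had 6 higher and 6 lower, with a median of 0.02.

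In the list of ISG15 conjugation and ubiquitin-type ligases, 10 of 16 were higher, beside 51% of all genes, with a median of 0.16. Ube2l6, the conjugating enzyme for ISG15, had 216 RPKM at 6 h, against 169 RPKM at 4 h, and Herc6, a ligase, 99.6 and 80.2 RPKM. Trim25 had 62.0 and 75.1 RPKM, having peaked at 103 RPKM at 2 h. The PARP family had 5 members higher and 5 lower. PML and SP100 nuclear body genes had a median of 0.30 over 7 members, with Sp100 at 81.1 and 64.3 RPKM, and all 5 Schlafen genes past the filter were higher, with a median of 0.14.

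Among secreted products, chemokines and cytokines had 13 of 19 lower, beside 49% of all genes, and a median of -0.08. Il6 was at 4.19 RPKM at 6 h, against 6.28 RPKM at 4 h, the death ligand Tnfsf10 at 19.3 and 25.2 RPKM, Il15, a T and NK cell cytokine, at 13.9 and 17.2 RPKM, and the monocyte chemokine Ccl2 at 606 and 724 RPKM. Cxcl10, which attracts T cells, had 1101 and 1051 RPKM, and Cxcl5, a neutrophil chemokine, had 71.1 and 51.0 RPKM. Complement genes past the filter were lower in 9 of 9, with a median of -0.14. C4b, induced by interferon, had 27.1 RPKM at 6 h, against 40.9 RPKM at 4 h, and C3 14 and 19.7 RPKM. NF-kB subunits and targets had 12 of 18 lower, beside the same 49%, and a median of -0.08.

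**Figure D4:**
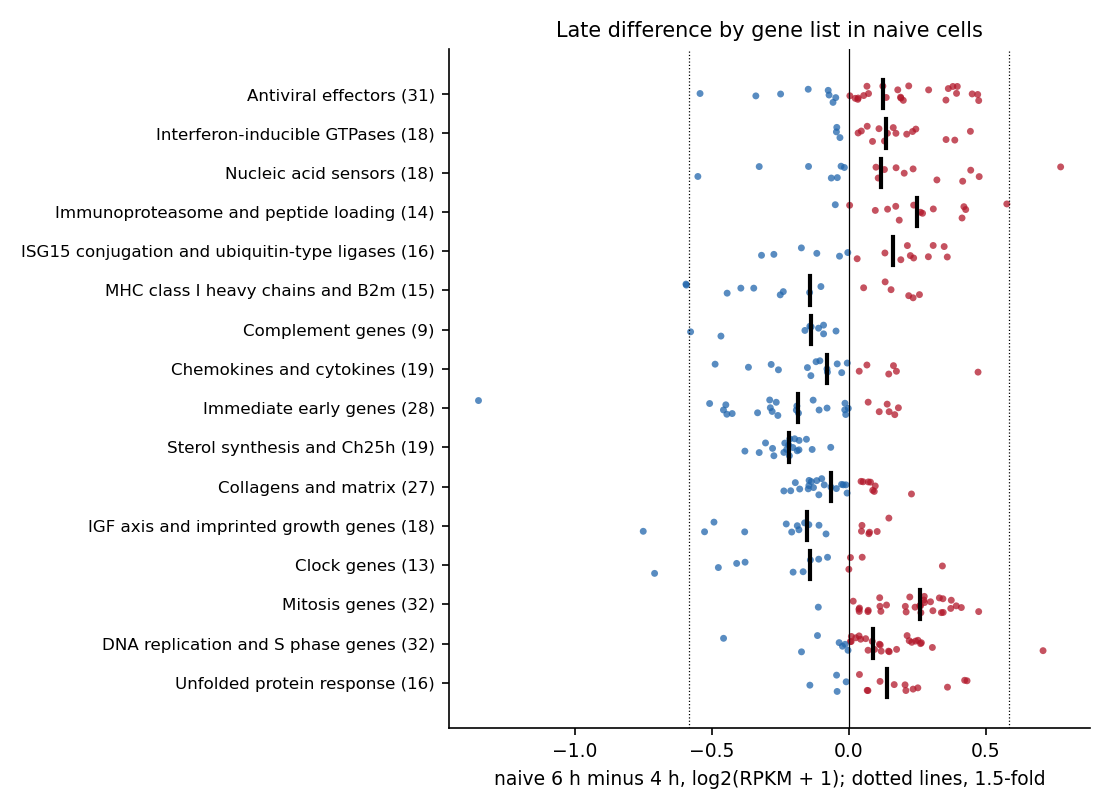
Each point is 1 gene of a list that passed the filter, placed by its 6 h minus 4 h difference in naive cells (log2(RPKM + 1), 1 library each), red where higher at 6 h and blue where lower; black bars are medians and the number of genes stands in parentheses. Mitosis genes (31 of 32 higher) and sterol genes (0 of 19 higher) lie almost wholly on opposite sides of 0, and few points pass the dotted 1.5-fold lines.

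Mitosis genes were higher at 6 h in 31 of 32, with a median of 0.26 and 0 past 1.5-fold, beside 51% of all genes higher. The list had been far below 0 h: 21 of 32 members stood 2-fold or more under it at 6 h and 28 at 4 h, and the summed level over the course was 1797, 1619, 1436, 672 and 783 RPKM. Ccnf, an F-box cyclin, had 9.09 RPKM at 6 h, against 6.26 RPKM at 4 h after 30.7 RPKM at 0 h, and Ccnb1, the mitotic cyclin, 11.3 and 8.53 RPKM after 24.3 RPKM. Top2a, the topoisomerase that untangles chromosomes, had 60.2 and 45.6 RPKM, and Tpx2, a spindle assembly factor, 69.1 and 51.7 RPKM. Cdca3 was the exception, at 32.4 and 35.1 RPKM. Outside the list, Fbxo5, the inhibitor of the anaphase-promoting complex, and the mitotic kinase gene Pbk had folds of 1.48 (1.41 to 1.56) and 1.42 (1.37 to 1.48). Spc25 is also outside the list and was past 1.5-fold, with a fold of 1.59 (1.52 to 1.66).

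Promoters of mitosis genes often hold CCAAT boxes, bound by NF-Y, and the cell cycle homology region core TTTGAA, bound by the DREAM complex that represses these genes outside division. Searched on both strands, where matches of one motif do not overlap those of the other in the windows shown, TTTGAA is in 12% and CCAAT in 39.3% of all 9292 windows, and in 19 and 23 of the 25 windows of mitosis genes. The windows of Spc25 (chr2:69206164-69206463, minus strand) and Ccnf (chr17:24251360-24251659, minus strand) are printed with these matches in capitals. Spc25 is not a member of the list, so its window is not among the 25. The deposited Spc25 transcript starts 23 bases from the start used here.
Spc25: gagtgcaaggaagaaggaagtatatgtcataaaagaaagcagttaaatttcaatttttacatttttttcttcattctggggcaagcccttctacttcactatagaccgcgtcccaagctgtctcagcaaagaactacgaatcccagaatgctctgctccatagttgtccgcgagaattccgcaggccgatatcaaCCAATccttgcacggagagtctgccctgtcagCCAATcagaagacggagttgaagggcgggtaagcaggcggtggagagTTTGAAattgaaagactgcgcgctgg
Ccnf: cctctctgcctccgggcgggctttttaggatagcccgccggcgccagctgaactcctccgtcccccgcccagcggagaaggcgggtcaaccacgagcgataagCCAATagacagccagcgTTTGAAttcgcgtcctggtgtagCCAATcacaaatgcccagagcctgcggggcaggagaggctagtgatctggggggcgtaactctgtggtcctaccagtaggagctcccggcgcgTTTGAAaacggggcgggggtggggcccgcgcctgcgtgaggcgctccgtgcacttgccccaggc

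DNA replication and S phase genes had 25 of 32 higher and a median of 0.09, so Mcm6, at 0.71, stood at the top of a list whose next member, Rfc4, had 0.31. The other helicase subunits, Mcm2, Mcm3, Mcm4, Mcm5 and Mcm7, had differences of 0.01, 0.07, 0.00, 0.11 and 0.09. The clamp loader gene Rfc4 had 14.2 RPKM at 6 h, against 11.3 RPKM at 4 h, Uhrf1, which maintains DNA methylation, 15.8 and 13.0 RPKM, and Ccne1, the cyclin of S phase entry, 6.17 and 8.85 RPKM. Replication-dependent histones, whose reads are shared between copies, had a median of 0.03. That list does not hold Hist1h2af, which had a difference of 1.04.

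Of 27 collagens and matrix genes 19 were lower, beside 49% of all genes, with a median of -0.07 and 0 past 1.5-fold. Col5a1 had 217 RPKM at 6 h, against 246 RPKM at 4 h, and Bgn, the proteoglycan biglycan, 1898 and 2173 RPKM, while Tnc, tenascin C, had 79.5 and 67.7 RPKM. The IGF axis and imprinted growth genes had 12 of 18 lower, beside the same 49%, and a median of -0.15. Besides Igf1, the imprinted RNA Meg3 had 26.8 and 39.0 RPKM and Dio3, which inactivates thyroid hormone, 3.31 and 5.07 RPKM. Mest, another imprinted gene, was the highest of the list at 356 and 322 RPKM.

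Immediate early genes had 22 of 28 lower and a median of -0.19, with Ctgf as the 1 member past 1.5-fold and past 2-fold. Egr1, a zinc finger factor induced by growth signals, was at 111, 108, 25.7, 70.0 and 48.9 RPKM, and Cyr61, a matricellular relative of Ctgf, at 210, 180, 107, 148 and 107 RPKM. Both had a low point at 2 h, a higher value at 4 h and a lower one at 6 h, which differs from the 2 h peak of Ctgf. Clock genes had 9 of 13 lower, beside 49% of all genes, Nr1d1 being past 1.5-fold. Dbp, a clock output factor, had 6.02 RPKM at 6 h, against 8.77 RPKM at 4 h, while Arntl, or BMAL1, whose gene Nr1d1 represses, had 8.17 and 6.24 RPKM.

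The sterol synthesis genes, targets of Srebf2 that make cholesterol, with Ch25h were lower in 19 of 19, with a median of -0.22. Mvd, an enzyme of the mevalonate pathway, had 6.39 RPKM at 6 h, against 7.97 RPKM at 4 h. No member passed 1.5-fold, and the summed level had been 494, 483, 518, 649 and 558 RPKM from 0 to 6 h, so 4 h was the high point of the list.

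Unfolded protein response genes had 12 of 16 higher, beside 51% of all genes, and a median of 0.14. Hspa5, the chaperone BiP, had 240 RPKM at 6 h, against 208 RPKM at 4 h, and Dnajb9, a cochaperone, 16.9 and 12.3 RPKM, but Xbp1 had 32.1 and 32.3 RPKM. ATF4 targets had 12 of 18 higher, beside the same 51%, and a median of 0.09. Ddit3 alone was past 1.5-fold, while Atf4 itself had 169 and 170 RPKM. Of the RNase P and MRP family of noncoding RNAs, which process tRNA and ribosomal precursors, Rmrp had 3.63 and 6.69 RPKM and Rpph1 6.54 and 11.4 RPKM. Both are short transcripts with few counts, 259 and 465 for Rmrp. Lists with general roles stayed near the median of all genes, with 0.04 for 34 ribosomal protein genes, 0.03 for 27 genes of oxidative phosphorylation and 0.02 for 14 reference genes.

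The pretreated libraries give a second look at the same hours, in cells of the same knock-in with another history. The late libraries of both arms were alike in depth. Those at 4 and 6 h held 241435257 to 268463961 counts, and all others 83907506 to 151310063 counts. Likeness between the arms is thus not shown to be independent, and shared handling of the late libraries was not tested. The pretreated arm had more genes apart between 6 h and 4 h, with 12 higher (0.0986%) and 36 lower (0.296%) at 2-fold, and 124 higher (1.02%) and 182 lower (1.5%) at 1.5-fold. Its median difference was 0.07 and its SD 0.24, and 65% of its genes were higher by any amount and 34.9% lower. Across the 12168 genes the differences of the arms had a Pearson r of 0.36 and a Spearman rho of 0.35, as a description, since genes are not independent and each arm is 1 pair of libraries. Part of the pretreated difference lay in genes that set its 1 and 4 h libraries apart. H19, an imprinted RNA, was at 110, 123, 89.5, 53.4 and 55.2 RPKM from 0 to 6 h in naive cells, and at 9.39, 43.7, 9.19, 44.4 and 9.78 RPKM in pretreated cells. Igf1 in pretreated cells was likewise high at 1 and 4 h, with 6.85, 18.8, 5.31, 14.4 and 4.20 RPKM. How far this pattern enters the pretreated late differences of other genes was not tested.

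Of the 51 genes lower in naive cells, 41 were also lower in pretreated cells, where the background is 34.9%, and 18 by 1.5-fold, with a median of -0.50. In 14 of the 51, among them Gjb2, Igf1, Wnt2, Sfrp4 and Agtr2, pretreated 1 and 4 h were both above, or both below, pretreated 0, 2 and 6 h. This counts any amount, and over all genes 9% had both above. The share of all genes with both below is not given here, so the 14 lack a full background. Without these 14, a count made after seeing the data, 29 of 37 were lower, 11 by 1.5-fold, with a median of -0.40. Has2 had 9.92 RPKM at 6 h, against 29.3 RPKM at 4 h in pretreated cells, Ctgf 27.4 and 56.3 RPKM, and Cd274 12.5 and 21.3 RPKM. The naive courses of Has2 and Ctgf thus had a counterpart in pretreated cells, whose levels at 2 h were 74.6 and 91.3 RPKM. Of the 19 genes higher in naive cells, 16 were higher in pretreated cells, where the background is 65%, and 2 by 1.5-fold, with a median of 0.25. Ddit3 had 176 RPKM at 6 h, against 98.6 RPKM at 4 h, while Epsti1 had only 31.5 and 26.1 RPKM, Phf11b 193 and 169 RPKM, and Mcm6 109 and 92.3 RPKM.

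**Figure D5:**
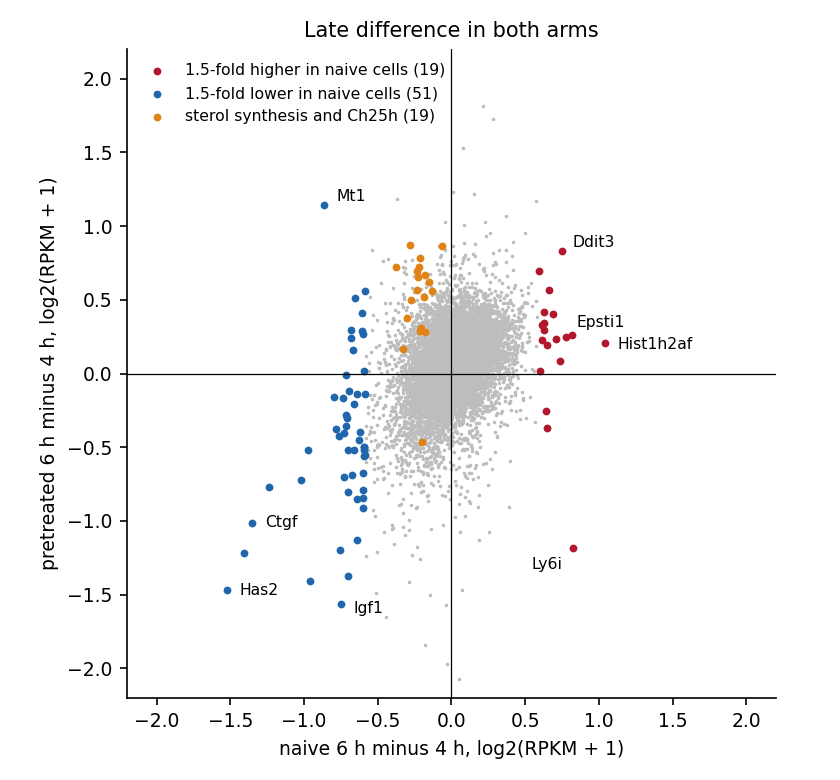
Each point is 1 of 12168 genes, placed by its 6 h minus 4 h difference in log2(RPKM + 1) in naive cells (x axis) and in pretreated cells (y axis), 1 library per time and arm. Of the genes 1.5-fold lower in naive cells (blue) 41 of 51 lie below 0 on the y axis, 16 of the 19 genes higher (red) lie above it, and 18 of the 19 sterol genes (orange) lie above it while all 19 lie left of 0 on the x axis.

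The arms stood on different sides of 0 in several lists. Interferon-inducible GTPases had 1 of 18 higher in pretreated cells (median -0.20), ISG15 and ligase genes 4 of 16 (median -0.15), and Schlafen genes 1 of 5 (median -0.23). Sterol genes had 18 of 19 higher there, with a median of 0.57 and 9 past 1.5-fold, where 65% of all genes were higher. Their pretreated sum was 614, 448, 608, 440 and 628 RPKM from 0 to 6 h, low in the 1 and 4 h libraries. Mitosis genes had 31 of 32 higher (median 0.32) and immediate early genes 22 of 28 lower (median -0.27, where 34.9% of all genes were lower), on the same side as in naive cells. The median of all pretreated genes was 0.07. Collagens and matrix genes were lower in 26 of 27, with a median of -0.39. Their pretreated sum was 16949, 21005, 16004, 20569 and 15456 RPKM from 0 to 6 h, high in the same 1 and 4 h libraries. The part of those libraries in these list differences was not tested. No difference between the arms was tested, since each has 1 library per time.

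With the arms taken in place of replicates, 6 h was set against 4 h over the 4 libraries with edgeR's quasi-likelihood test. The fit has 1 residual degree of freedom. Its p-values set the late difference shared by the arms against how far the arms differ in it. No gene passed an adjusted p of 0.05 (Benjamini-Hochberg over 12168 genes, 0% higher and 0% lower), and 1670 had an unadjusted p under 0.05. Has2 had the smallest adjusted p, 0.0641, with a log2 fold change of -1.62 ± 0.07 (SE), and it was lower in both arms. DESeq2's Wald test on the same libraries called 58 genes higher (0.486%) and 234 lower (1.96%) of 11932. Limma on log2(RPKM + 1) called Has2 (adjusted p 0.0227) and Has2as (0.0457). DESeq2 called 6 of 28 immediate early genes and 5 of 15 genes of the class I MHC list lower. Antiviral effectors had 2 of 31 called lower and matrix genes 2 of 27. Clock genes had 3 of 13 lower and the IGF axis list 3 of 18. Called higher were 3 of 32 mitosis genes and 2 of 18 ATF4 genes, and other lists also held calls. The calls thus differed between the tools, from 0 to 292 genes on the same 4 libraries.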

How the data were processed

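Total RNA of 10 MEF libraries had been sequenced on a HiSeq2000, and 1 table of all libraries was used. Cufflinks 1.2.1, TopHat and Bowtie are listed, with the build mm10 and no role, per the submitters' processing notes. Per the file headers, each library has 2 columns over RefSeq transcripts, a tag count and an RPKM; the counts were deposited unnormalised, and the RPKM values were scaled for length and depth by the authors. The counting tool, its strand setting and its handling of multiply aligned reads were not given in the sources used here.

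Of 30646 transcripts, 15 without a gene (0.0157% to 0.0193% of counts) were left out. Where a symbol had several transcripts (4306 of 23370), that with the highest mean RPKM was kept. The naive 6 h and 4 h libraries, 1 each, were compared on log2(RPKM + 1) without p-values. Exact 95% limits of a ratio came from the counts with the depth ratio behind the deposited RPKM, 1.03; reads without molecular identifiers are not independent molecules.

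Over both arms, edgeR 4.0.16 (glmQLFit and glmQLFTest, TMM, two-sided) was fitted with arm and time on the counts of 4 libraries, with DESeq2 1.42.0 and limma 3.58.1 in R 4.3.3 as alternatives. On simulated counts of 12168 genes with 200 changed, edgeR recovered 71% of genes changed 1.5-fold and 95% of those changed 2-fold. Of its calls, 7.78% were false. The simulation gave both arms the same mean and the same change, so these shares need not hold for the real libraries. The rest was computed in Python with scipy.

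The genes, the 44 gene lists and the tests were chosen with earlier results of these data known, and support no pattern by themselves. Named genes had at least 2 RPKM in 1 of both naive libraries and were the 15 largest gains and losses on the log2 scale, the 6 largest of each among genes 2-fold above naive 0 h at 4 h, the 6 largest gains among genes 2-fold below it, and the 5 largest in RPKM each way. The rule also took genes called over both arms, of which there were none. Other genes named are list members or were chosen among the genes past 1.5-fold after their values were seen. Sequences are RefSeq's (GRCm38.p6). Some genes are not reported here. Alternatives covered the pseudocount, the scaling, the filter, the transcript per symbol, the fold and the test.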

Additional observations from a re-analysis of the deposited data

Results flagged for a closer look

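A pair of genes stood past 1.5-fold in opposite directions in the arms between 6 h and 4 h; the difference between the arms was not tested, since each arm has 1 library per time. Ly6i, of the Ly6 surface protein cluster, had a log2 difference of 0.83 in naive and -1.19 in pretreated cells. Mt1, a metallothionein, had -0.86 in naive and 1.14 in pretreated cells, where it was at 781, 282, 613, 180 and 400 RPKM from 0 to 6 h, low at 1 and 4 h.

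In 5 lists of 5 or more genes the median lay on opposite sides of 0 in the arms, at least 0.3 apart on the log2 scale, again without a test. Sterol synthesis genes with Ch25h had -0.22 in naive and 0.57 in pretreated cells, where their sum was low at 1 and 4 h, with 614, 448, 608, 440 and 628 RPKM from 0 to 6 h. Interferon-inducible GTPases had 0.14 and -0.20, ISG15 conjugation and ligase genes 0.16 and -0.15, PML and SP100 nuclear body genes 0.30 and -0.04, and Schlafen genes 0.14 and -0.23, naive cells first in each case.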

How the results depend on the processing

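No paired analysis was possible because each arm and time has 1 library, with no replicate numbers to pair; the fit over both arms took the arm as a term. The counts of genes apart depended on the pseudocount, and their order, more lower than higher, held except at 5 RPKM for 1.5-fold. With 0.1 RPKM instead of 1, the counts of genes higher and lower at 2-fold were 5 and 17, and at 1.5-fold 53 and 141; with 5 RPKM they were 0 and 3, and 8 and 8. These follow from the construction, since a pseudocount shrinks the folds of low genes. At a fold of 1.5 in place of 2 the counts were 19 and 51. The other scalings (TMM, DESeq2 size factors), filters and choice of transcript kept each count within 1.5 times, and shifted the median of all genes to at most 0.01 on the log2 scale. Of 44 list medians, 30 were above 0, and 29 to 31 under the alternatives; those of the cytokine feedback inhibitors (-0.00178 with the transcript listed first) and of the macrophage markers (0.000479 with TMM) crossed 0. None of the 42 named genes changed direction. Over both arms the counts were 0 higher and 0 lower with edgeR. DESeq2 gave 58 and 234, limma 0 and 2, and edgeR with no filter 0 and 5; the cause was not tested. Fits on all 10 libraries, with and without each of the 4 late libraries, called 0 genes, with 224 to 779 at an unadjusted p under 0.05. Depth limits short RNAs most: the fold of 6 h over 4 h had limits of 0.106 to 0.482 for Mir378b and 1.27 to 7.52 for Snord91a, against 0.287 to 0.321 for Diras2. Spread between cultures is not known.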

Other observations

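Zinc finger genes with Zfp symbols, many of which encode repressors of transcription, were higher in 196 of 292 naive members and lower in 96, with a median of 0.07, beside 51% higher over all genes. None passed 1.5-fold. Interferon-regulated cell death genes differed among themselves: Casp12 had 63.8 RPKM at 6 h, against 47.3 RPKM at 4 h and Mlkl, the executor of necroptosis, 102 and 75.7 RPKM, while the death receptor Fas had 6.44 and 9.56 RPKM. Among surface genes, Bst2, or tetherin, was at 605 and 591 RPKM and Ifitm3 at 1597 and 1571 RPKM. The long noncoding RNA Neat1, the scaffold of paraspeckles, had 159 and 139 RPKM, and Malat1 241 and 265 RPKM.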
